A study of Mus musculus with 6 samples.

Results

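Lipid-handling macrophage genes were followed through the cell classes of 6 droplet single-cell RNA libraries of the mouse 4T1 model. The 9 genes, of 28649 in the tables, were selected on their measured levels by lineage, their co-expression within macrophages and their difference between the library groups: Apoe, Apoc2, Lpl, Trem2, Cd36, Fabp5, Lipa, Gpnmb and Cd9. Because those values chose the genes, levels by class and co-expression are given as descriptions without a test. The difference between labels was also known when the genes were chosen, so its tests describe these libraries and are not independent support. 4T1, a mouse mammary carcinoma line, serves to model triple-negative breast cancer. In 3 libraries the 4T1 cells carried a non-targeting hairpin (shNC, labelled wild type), and in the other 3 a hairpin against Pgk1 (shPgk1, labelled PGK1 knockdown). Both groups had received lentivirus for 48 hours and puromycin at 2 µg/mL for 7 days, and the suspensions exceeded 80% viability. The labels do not say that the 3 libraries of a group came from separate animals or cultures, so the tests measure the spread between libraries, which may be technical. The labels name 4T1 as the cell type and give no host animal, strain or age, while the libraries also held cells with the markers of macrophages, lymphocytes, neutrophils, fibroblasts and endothelium.

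Macrophages that take up lipid-rich debris hydrolyse the lipid in lysosomes, bind the freed fatty acids to carrier proteins and export cholesterol on apolipoproteins. TREM2 is a surface receptor for lipids and apolipoproteins, and APOE is the main lipoprotein particle component that macrophages secrete. In tumours, cells with this set of transcripts are often called lipid-associated macrophages.

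Pgk1, the gene that the hairpin targets, did not fall under the label shPgk1. Levels are given as CPM, a gene's counts in a class and library scaled to the same total. Tumour-like cells had 283, 241 and 217 CPM of Pgk1 in shNC libraries 1 to 3, against 244, 297 and 323 CPM in the libraries labelled shPgk1. The log2 fold of the libraries labelled shPgk1 over shNC was 0.37 ± 0.15 (SE) in tumour-like cells (edgeR quasi-likelihood test, Benjamini-Hochberg adjusted p = 0.105) and 0.001 ± 0.08 in macrophage-like cells (adjusted p = 0.996), so every direction below refers to the library labels. The libraries held between 78778073 and 128933960 counts. After filtering, 41434 of 42902 barcodes were kept. Named from marker genes, 3 clusters were macrophage-like (7079 cells in shNC and 5314 in the libraries labelled shPgk1) and 2 were tumour-like (6727 and 10090 cells). Another cluster of 3831 cells scored best for epithelial tumour markers but had only 2 of 7 raised and was left unnamed. It held 1604 cells in shNC and 2227 in the libraries labelled shPgk1, which are not among the tumour-like cells. Macrophage-like cells made up 34.7% ± 1.66 of kept cells in shNC and 25.3% ± 4.47 in the libraries labelled shPgk1 (SD, n = 3 and 3), and tumour-like cells 33.3% ± 6.26 and 47.8% ± 2.11. In macrophage-like cells the 7 neutrophil markers summed to 375 to 488 CPM in shNC and 77.2 to 142 CPM in the libraries labelled shPgk1, and the 6 fibroblast markers to 395 to 637 and 177 to 280 CPM. The 6 mast cell or basophil markers summed to 48.6 to 140 CPM and 19.1 to 33.5 CPM, while the 7 epithelial tumour markers went the other way, from 273 to 385 CPM to 407 to 568 CPM. No marker of these 4 lists was at 0, and their part in the values below was not tested.

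The name of the gene set held for some members and not for others. Of the 9 genes, Apoe, Apoc2, Trem2 and Gpnmb were highest in macrophage-like cells among the 9 named classes. By mean level, Fabp5 was highest in pericyte-like cells and Lpl in pericyte-like and fibroblast-like cells. Cd36 and Lipa were highest in endothelial-like cells and Cd9 in neutrophil-like and tumour-like cells. The ranges of Fabp5 in pericyte-like cells and of Lipa in endothelial-like cells overlapped those in macrophage-like cells. Pericyte-like cells numbered only 11 to 52 a library. Among the 6 classes in which the labels were compared (macrophage-, tumour-, T or NK-, neutrophil-, fibroblast- and endothelial-like), 5 members were highest in macrophage-like cells, Fabp5 being added. The plot of levels by class shows each library.

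**Figure D1:**
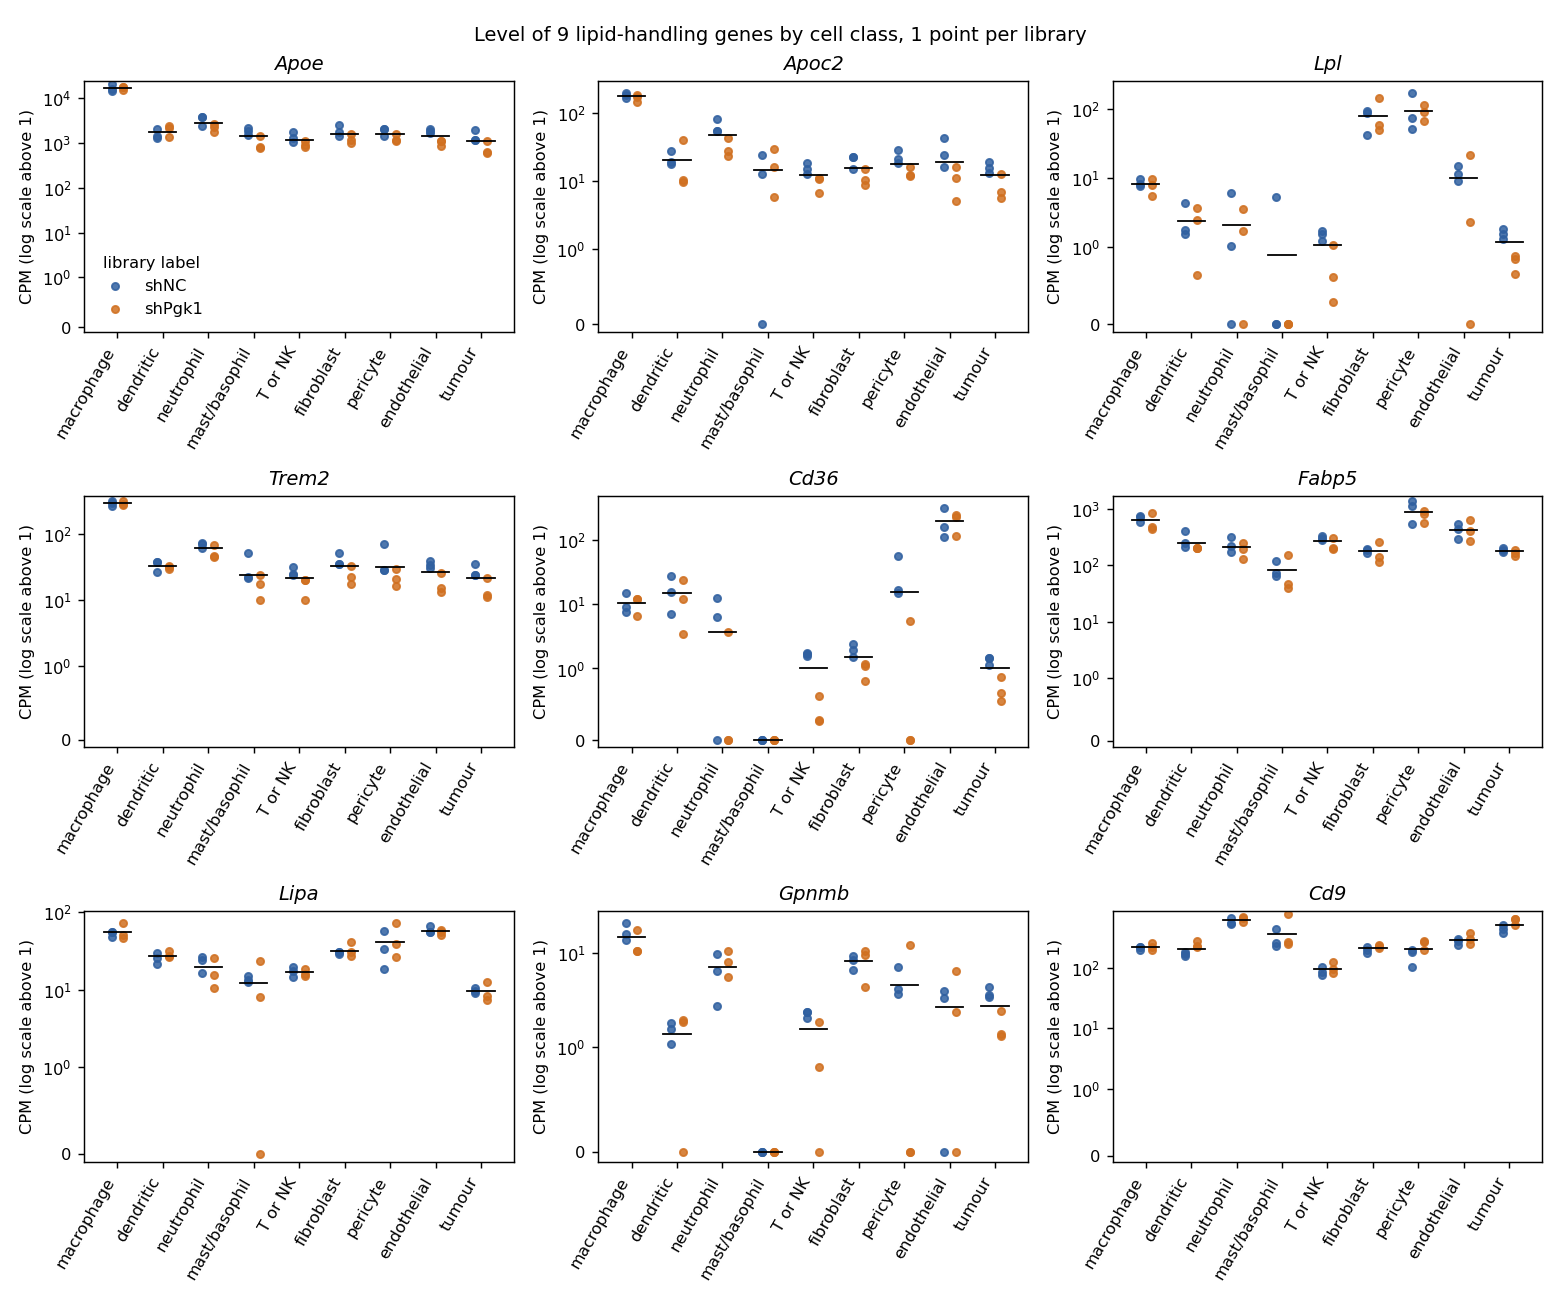
Level of each gene (CPM, logarithmic above 1 and linear below) in 9 cell classes, with 1 point per library (blue shNC, orange labelled shPgk1) and a black line at the mean of 6 libraries. Apoe, Apoc2 and Trem2 stand apart in macrophage-like cells, Cd36 in endothelial-like cells and Lpl in fibroblast-like and pericyte-like cells.

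The promoters of Apoe, Apoc2 and Trem2 are shown first, since these 3 genes had the largest shares of their counts in macrophage-like cells. Apoe lies on chromosome 7 from 19696109 to 19699188 (minus strand) and Apoc2 on the same strand from 19671579 to 19677941, 18168 bases apart, with Apoc1 and Apoc4 between them. Trem2 lies on chromosome 17 from 48346401 to 48354147 (plus strand). Lpl lies on chromosome 8 from 68880491 to 68907448 (plus strand), Cd36 on chromosome 5 from 17781690 to 17888801 (minus strand) and Fabp5 on chromosome 3 from 10012548 to 10016607 (plus strand). Lipa lies on chromosome 19 from 34492318 to 34527474 (minus strand), and chromosome 6 holds Gpnmb from 49036546 to 49070929 (plus strand) and Cd9 from 125460266 to 125494791 (minus strand). All 9 are protein coding, and these positions are from GENCODE M21 on GRCm38. The sequences below are the 250 bases before 1 start site of each gene, 5′ to 3′ on the gene's strand, from RefSeq on GRCm38.p6 (chr7:19699189-19699438, chr7:19677942-19678191 and chr17:48346151-48346400). Capitals mark GAGGAA, the core bound by ETS factors such as PU.1, and AGGTCA, the half-site of nuclear receptors, on either strand (TTCCTC and TGACCT are the reverse complements).
Apoe: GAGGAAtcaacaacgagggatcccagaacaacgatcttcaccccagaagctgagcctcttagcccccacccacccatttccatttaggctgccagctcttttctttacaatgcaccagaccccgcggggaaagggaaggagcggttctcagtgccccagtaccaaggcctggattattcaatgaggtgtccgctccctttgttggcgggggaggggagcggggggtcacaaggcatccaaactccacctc
Apoc2: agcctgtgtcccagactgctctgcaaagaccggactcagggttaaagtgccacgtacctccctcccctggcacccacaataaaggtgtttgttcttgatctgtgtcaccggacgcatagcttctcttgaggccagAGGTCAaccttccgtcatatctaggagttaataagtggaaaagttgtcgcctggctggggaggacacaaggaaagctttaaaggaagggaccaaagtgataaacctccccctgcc
Trem2: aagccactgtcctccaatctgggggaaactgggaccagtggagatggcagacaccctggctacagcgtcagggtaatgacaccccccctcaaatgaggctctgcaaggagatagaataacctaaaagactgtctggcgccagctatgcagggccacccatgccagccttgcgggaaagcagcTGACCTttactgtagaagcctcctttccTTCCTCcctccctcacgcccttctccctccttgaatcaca
Apoe held GAGGAA with its first base at position -250 from the start site, Apoc2 held AGGTCA at -115, and Trem2 held both, on the reverse strand, at -40 and -68. GAGGAA occurred in 23.25% and AGGTCA in 14.02% of 32851 mouse windows of the same length. The palindrome CACGTG, bound by lysosomal-gene regulators of the MiT/TFE family, occurred in 6.02% of windows and in 0 of the 9 windows found for 7 members (Apoe has 3; Fabp5 and Lpl were not matched). The other matches were AGGTCA in the window of Cd36 and GAGGAA in that of Lipa and in another window of Apoe. Such matches describe letters, not binding.

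Apoe, the secreted apolipoprotein that carries cholesterol, was a macrophage-like transcript in these libraries. Its macrophage-like values were 14391, 16001 and 20266 CPM in shNC libraries 1 to 3, and 17845, 17532 and 14999 CPM in the libraries labelled shPgk1. The groups overlapped, and the highest and the lowest library were both shNC. Neutrophil-like cells came next at 2755 ± 804 CPM and tumour-like cells were last at 1101 ± 496 CPM (SD, n = 6 libraries). From the second class to the ninth, each class overlapped the next in its range over libraries. Macrophage-like cells gave 87.9% ± 1.51 of all Apoe counts. In neutrophil-like cells Apoe stood at 16.5% of its macrophage-like level, Apoc2 at 26.3% and Trem2 at 21.1%, beside a median of 19.1% for 10 macrophage markers, and the source of these transcripts was not tested.

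Apoc2, an apolipoprotein that activates lipoprotein lipase, followed the order of Apoe in its first 3 classes. Its macrophage-like values were 203, 170 and 188 CPM in shNC and 176, 187 and 147 CPM in the libraries labelled shPgk1, again overlapping. The mean was 178 ± 19.1 CPM over 6 libraries, against 48.0 ± 21.4 CPM in neutrophil-like and 12.3 ± 5.12 CPM in tumour-like cells. No other class reached the macrophage-like range.

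Lpl encodes lipoprotein lipase, the enzyme that frees fatty acids from lipoproteins and needs APOC2. Its macrophage-like values were 7.75, 8.33 and 9.64 CPM in shNC and 8.11, 5.45 and 9.73 CPM in the libraries labelled shPgk1, with a mean of 8.17 ± 1.56 CPM, resting on 132 to 355 counts a library. Pericyte-like cells held 94.4 ± 43.7 CPM and fibroblast-like cells 79.6 ± 38.5 CPM, with overlapping ranges. Fibroblast-like cells were 5.83% of kept cells in shNC and 3.60% in the libraries labelled shPgk1. They gave 50.4% ± 12.3 of all Lpl counts and macrophage-like cells 32.2% ± 11.5. Enzyme and activator were thus highest in different classes.

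Trem2 had its macrophage-like values between 268 and 317 CPM, the narrowest relative spread of the 9 genes. They were 268, 296 and 317 CPM in shNC and 313, 288 and 274 CPM in the libraries labelled shPgk1. Neutrophil-like cells followed at 61.1 ± 12.1 CPM, and tumour-like cells held 21.5 ± 8.81 CPM. An unnamed cluster led by Ctsk, Acp5 and Mmp9, genes known from osteoclasts, held 188 CPM of Trem2 and 44.2 CPM of Lpl. Only 2 of 9 macrophage markers were raised in it, so it was left without a name.

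Cd36, a scavenger receptor and fatty acid translocase, was an endothelial-like transcript in these data. It stood at 194 ± 80.4 CPM in endothelial-like cells, where the lowest library had 112 CPM, and at 10.3 ± 3.18 CPM in macrophage-like cells, where the shNC libraries had 9.07, 14.9 and 7.56 CPM and the libraries labelled shPgk1 between 6.49 and 12.1 CPM. Endothelial-like cells were 1.25% ± 0.459 of kept cells in shNC and 0.906% ± 0.430 in the libraries labelled shPgk1 (SD, n = 3 and 3). They gave 34.0% ± 9.11 of all Cd36 counts, and macrophage-like cells 49.9% ± 12.2.

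Fabp5, a cytosolic fatty acid binding protein, was spread more widely. Its macrophage-like values were 752, 714 and 594 CPM in shNC and 867, 450 and 472 CPM in the libraries labelled shPgk1, so that the libraries labelled shPgk1 held both the highest and the lowest. Pericyte-like cells had 899 ± 335 CPM and endothelial-like cells 429 ± 140 CPM, and each range overlapped the macrophage-like one. Tumour-like cells held 179 ± 19.2 CPM and gave 26.1% ± 12.7 of all Fabp5 counts.

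Lipa encodes the acid lipase that hydrolyses cholesteryl esters and triglycerides in lysosomes. It stood at 57.2 ± 5.39 CPM in endothelial-like and at 54.7 ± 9.52 CPM in macrophage-like cells, which overlapped. The macrophage-like values were 55.3, 54.8 and 47.7 CPM in shNC and 72.8, 46.7 and 51.0 CPM in the libraries labelled shPgk1, where library 1 was highest. Its lowest level was in tumour-like cells, at 9.58 ± 1.79 CPM.

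Gpnmb, a transmembrane glycoprotein of lysosome-rich phagocytes, was highest in macrophage-like cells but rested on few counts. Its macrophage-like values were 13.5, 20.7 and 15.6 CPM in shNC and 17.4, 10.4 and 10.4 CPM in the libraries labelled shPgk1, from 252 to 653 counts a library. Fibroblast-like cells held 8.04 ± 2.24 CPM, overlapping the lowest macrophage-like libraries. Cd9, a tetraspanin that organises membrane proteins, was higher outside macrophages, at 623 ± 74.9 CPM in neutrophil-like and 523 ± 104 CPM in tumour-like cells against 223 ± 22.4 CPM in macrophage-like cells. Tumour-like cells gave 66.7% ± 13.3 of all Cd9 counts.

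In tumour-like and T or NK-like cells, Apoe, Apoc2 and Trem2 stood near the level of macrophage markers, which droplets can pick up as free RNA from other cells. In tumour-like cells 10 macrophage markers (Csf1r, the C1q chains, Ms4a7, Adgre1, Fcgr1, Cd68, Lyz2 and Aif1) had a median of 6.92% ± 2.34 of their macrophage-like level (SD, n = 6). Apoe stood at 6.45% ± 2.38, Apoc2 at 6.76% ± 2.50 and Trem2 at 7.29% ± 2.74, within the range of the single markers, which ran from 4.73% for Ms4a7 to 9.61% for Cd68. In T or NK-like cells the markers had a median of 7.24%, and the same 3 genes stood at 6.81%, 6.91% and 7.49%. These levels of Apoe, Apoc2 and Trem2 do not by themselves show expression by these cells, and their source was not tested.

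The other members had higher percentages in tumour-like cells. Cd36 was at 10.6% of its macrophage-like level, Lpl at 14.6%, Lipa at 17.5%, Gpnmb at 18.3%, Fabp5 at 29.0% and Cd9 at 234%. Lpl, Cd36, Lipa, Fabp5 and Cd9 were highest in classes other than macrophage-like, so their macrophage-like level is not a full reference for free RNA. Whether tumour-like cells express these genes or hold them as free RNA was not tested. In T or NK-like cells Fabp5 reached 43.2% and Cd9 42.4%, and in fibroblast-like cells Lipa reached 58.3%, Gpnmb 57.5% and Lpl 980%. The marker median in fibroblast-like cells was 9.56%. The comparison for tumour-like cells is drawn per library.

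**Figure D2:**
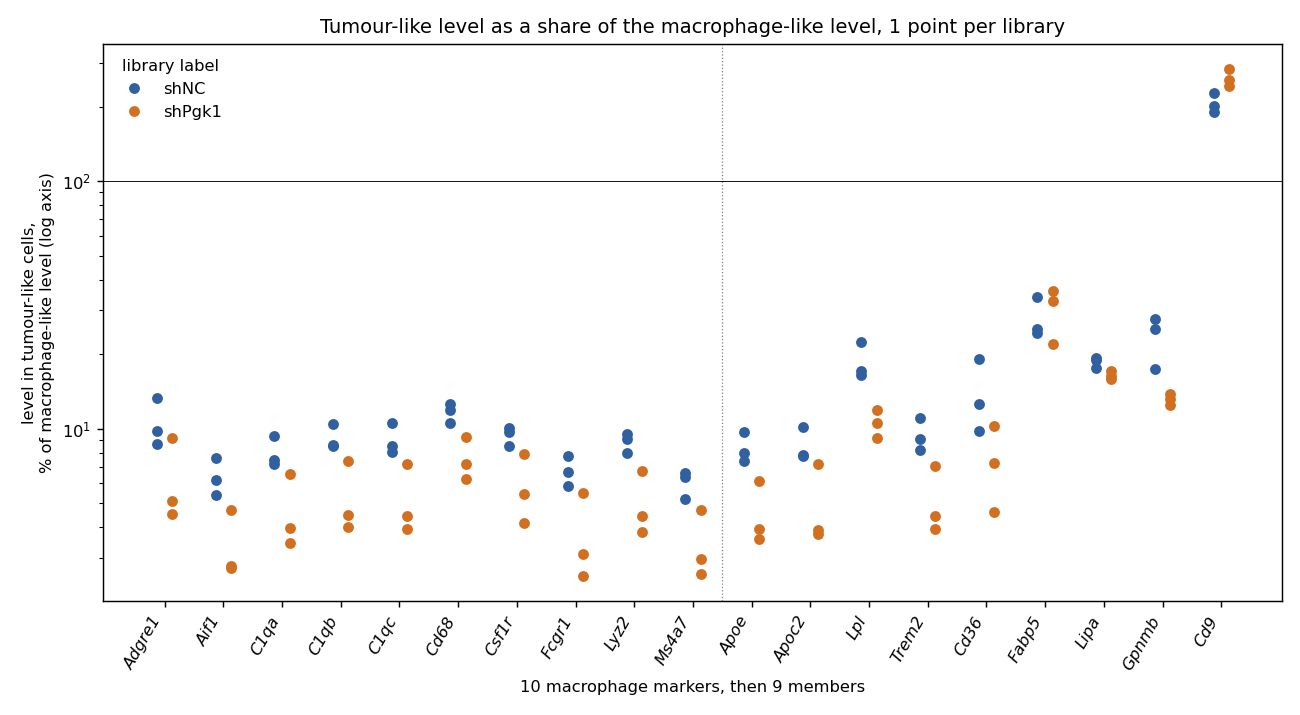
Level in tumour-like cells as a percentage of the macrophage-like level of the same library (logarithmic axis), for 10 macrophage markers and the 9 genes, with 1 point per library (blue shNC, orange labelled shPgk1). Apoe, Apoc2 and Trem2 lie among the markers and Cd9 lies above 100%. The mean of the libraries labelled shPgk1 is lower than that of shNC for the 10 markers and for every member except Fabp5 and Cd9.

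The share of cells with a transcript was compared at equal depth. Each cell was thinned to 3000 unique molecules (UMIs), leaving out 571 macrophage-like cells in shNC and 391 in the libraries labelled shPgk1 that were shallower. Of the T or NK-like cells, 330 of 1529 in shNC and 351 of 1305 in the libraries labelled shPgk1 were left out. Apoe was then seen in 99.9% of macrophage-like cells in shNC and in 99.7% in the libraries labelled shPgk1, but also in 98.0% and 89.6% of T or NK-like cells, so detection of Apoe did not mark a cell as a macrophage. Trem2 was seen in 49.0% ± 2.55 and 50.8% ± 3.26 of macrophage-like cells against 7.88% and 3.71% of T or NK-like cells. Fabp5 was seen in 50.2% and 45.7%, Cd9 in 41.5% and 43.9%, Apoc2 in 35.7% and 34.3% and Lipa in 12.1% and 13.6% of macrophage-like cells. Gpnmb was seen in 3.24% and 2.34%, Cd36 in 2.37% and 1.92% and Lpl in 2.06% and 1.51%. Without thinning, the shares for Trem2 were 78.5% and 80.8% in macrophage-like cells and 22.3% and 13.1% in T or NK-like cells, whose median depths were 5844 and 5722 UMIs against 13261 and 15401.

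The 3 macrophage-like clusters carried the members in different amounts. Cluster 2 (7195 cells) was led by Pf4, Pclaf, Stmn1, Ccl12 and Birc5, among them cell cycle genes. Cluster 3 (4837 cells) was led by Inhba, Ly6c2, Ly6i, Fmnl2 and Malt1, and cluster 11 (361 cells) by Retnla, Cbr2, Cd163, Cd209d and Cd209g, known from resident macrophages. The members were left out when cells were clustered. Apoe stood at 18271 CPM in cluster 2, 14028 CPM in cluster 3 and 21506 CPM in cluster 11 (means of 6 libraries), and Trem2 at 323, 233 and 367 CPM. In each of the 6 libraries both genes were lower in cluster 3 than in cluster 2. Apoc2 ran the other way, at 164, 209 and 110 CPM, and was higher in cluster 3 than in cluster 2 in all 6 libraries. Fabp5 stood at 756, 452 and 257 CPM, Cd9 at 204, 263 and 101 CPM, Lipa at 58.5, 48.0 and 52.4 CPM and Gpnmb at 13.7, 17.4 and 1.07 CPM. Cluster 3 made up 52.0%, 36.1% and 40.5% of macrophage-like cells in shNC and 37.0%, 26.9% and 33.4% in the libraries labelled shPgk1.

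Co-expression across macrophage-like cells was weak for most pairs. Over 11431 thinned cells, the Pearson correlation of the 36 pairs had a median of 0.04 (medians over 6 libraries), and 5 pairs were above 0.1. Apoe with Trem2 had the highest correlation, 0.27 (range over libraries 0.23 to 0.30), ahead of Apoe with Fabp5 at 0.19, Trem2 with Fabp5 at 0.16, and Fabp5 with Gpnmb (range 0.096 to 0.23) and Apoe with Apoc2 at 0.15 each. The lowest was Apoe with Cd9 at -0.08. Within cluster 2 Apoe and Trem2 correlated at 0.24 and within cluster 3 at 0.23. Without thinning, the value over all 3 clusters was 0.435. Cells of 1 library share free RNA, and the counts of Lpl, Cd36 and Gpnmb are sparse, so that weak correlations of these genes, that of Gpnmb with Fabp5 included, are given as values only.

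**Figure D3:**
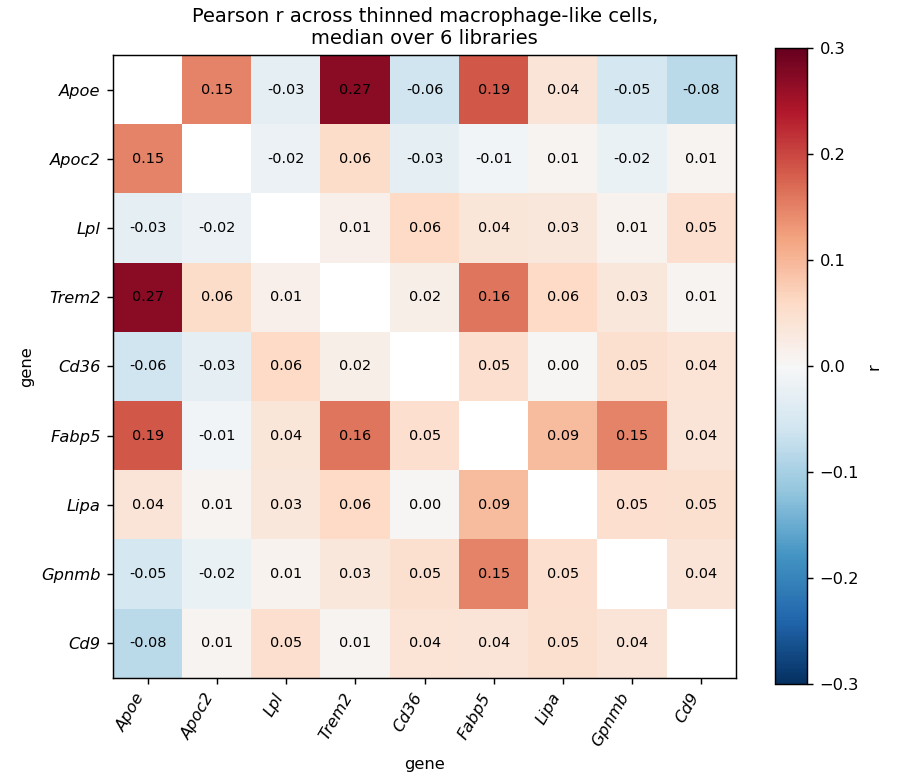
Pearson correlation of log-scaled, thinned counts across 11431 macrophage-like cells for each pair of the 9 genes (both axes), as the median over 6 libraries, with colour from -0.3 to 0.3. Apoe, Trem2 and Fabp5 form the block with the highest values, and most other cells of the matrix lie near 0.

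Among 2177 other genes with at least 50 CPM in macrophage-like cells, the correlation with the summed level of the members was highest for the following 12: Ftl1 (0.36), Ctsb (0.36), Ctsd (0.34), Cd63 (0.33), Psap (0.32), Fth1 (0.30), C1qa (0.28), Arg1 (0.27), H2-D1 (0.27), C1qb (0.27), C1qc (0.26) and Lyz2 (0.26). Ftl1 and Fth1 encode ferritin chains, Ctsb and Ctsd lysosomal proteases, and Psap the precursor of sphingolipid activators. The median over all these genes was -0.01. The lowest were Plac8 (-0.21) and the monocyte gene Ly6c2 (-0.21), which leads cluster 3. Each value is the median over 6 libraries of the correlation across cells that share a library and its free RNA, and the summed level adds the log-scaled levels of the 9 members.

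None of the 9 members passed the test between library labels in macrophage-like cells. The largest difference was that of Gpnmb, with a log2 fold of -0.42 ± 0.27 (SE, n = 3 and 3; edgeR quasi-likelihood test, Benjamini-Hochberg adjusted p = 0.456). Fabp5 had -0.25 ± 0.28 (adjusted p = 0.689), Lpl -0.19 ± 0.19, Apoc2 -0.18 ± 0.11, Cd36 -0.09 ± 0.33, Apoe -0.06 ± 0.15 and Trem2 -0.06 ± 0.10. Cd9 had 0.05 ± 0.09 and Lipa 0.07 ± 0.17. In this class 0.668% of 15558 genes were called, 12 higher and 92 lower in the libraries labelled shPgk1, 2799 had an unadjusted p under 0.05, and DESeq2 called 613. Of the members 0 had an unadjusted p under 0.05, and DESeq2 called 0. Their median log2 fold was -0.09, beside 0.003 over all genes tested. The 10 macrophage markers had a median of 0.12 in the same cells, from -0.23 to 0.31, and 0 were called. For Fabp5 1 library decided the call: without library 1 labelled shPgk1, which had the highest level, the log2 fold was -0.63 (edgeR, adjusted p = 0.0233). The share of all genes called without that library is not given here, so this call is not read as particular to Fabp5.

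Other genes of the pathways around the members did not pass in macrophage-like cells either. The lists were written with earlier results of these data known. Of 17 tested genes of the lipid-associated macrophage programme 0 were called, and the lowest p values belonged to Igf1, a growth factor (-0.40 ± 0.13, adjusted p = 0.173), Lgals1, a galectin (0.24 ± 0.09), and Fabp4, another fatty acid carrier (-0.85 ± 0.32). Of 8 TREM2 partners and signalling genes 0 were called, led by Plcg2, a phospholipase downstream of the receptor (0.28 ± 0.07, adjusted p = 0.114), Hcst, an adaptor (-0.18 ± 0.08), and Syk, the kinase (-0.26 ± 0.11). Likewise 0 of 12 LXR and cholesterol efflux genes were called, with the apolipoproteins Apoc4 at -0.49 ± 0.21 and Apoc1 at -0.86 ± 0.46 and the phospholipid enzyme Lpcat3 at -0.16 ± 0.09.

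Among 9 tested PPAR receptors and targets 0 were called. Ucp2, a mitochondrial carrier, was nearest, at -0.42 ± 0.09 (edgeR, adjusted p = 0.0611), followed by Angptl4, an inhibitor of lipoprotein lipase, at -0.55 ± 0.18 and Hadha, an enzyme of fatty acid oxidation, at 0.20 ± 0.09. Of 10 scavenger and lipoprotein receptors 0 were called, with the scavenger receptor Olr1 at -0.43 ± 0.13 and the endocytic receptor Lrp1 at -0.24 ± 0.09. The 17 genes of lysosomal lipid breakdown gave 0 calls, with the cholesterol carrier Npc2 at -0.21 ± 0.10 and the transcription factors Tfec and Tfe3 at 0.38 ± 0.18 and 0.19 ± 0.10. The 12 lipid droplet genes gave 0 calls and a median of -0.25, with the lipase Pnpla2 at -0.29 ± 0.10, Soat1, which esterifies cholesterol, at -0.26 ± 0.10 and Dgat2, which makes triglycerides, at -0.25 ± 0.10. The 6 tested regulators of lipoprotein lipase gave 0 calls and a median of -0.37, with Angptl4 as above, Furin at -0.20 ± 0.08 and the endothelial anchor Gpihbp1 at -1.27 ± 0.60. Of 8 fatty acid carriers 0 were called, with Fabp3 at -0.61 ± 0.25, Fabp4 as above and Acbd3 at 0.29 ± 0.12. Of 9 tetraspanins and partners 0 were called, with Cd81 at 0.35 ± 0.11, Cd53 at -0.11 ± 0.07 and Cd151 at 0.12 ± 0.10.

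In tumour-like cells 2 of 9 members were called, Cd9 and Gpnmb, in opposite directions. Cd9 had 512, 447 and 382 CPM in shNC, against 518, 644 and 639 CPM in the libraries labelled shPgk1. The groups did not overlap, though library 1 labelled shPgk1 was close to shNC library 1. The log2 fold of Cd9 was 0.58 ± 0.14 (SE; edgeR quasi-likelihood test, Benjamini-Hochberg adjusted p = 0.0414). Gpnmb had 3.39, 3.58 and 4.33 CPM in shNC, against 2.40, 1.30 and 1.36 CPM in the libraries labelled shPgk1, without overlap and from 92 to 150 counts a library. Its log2 fold was -1.03 ± 0.24 (adjusted p = 0.0372). In this class 10.4% of 16341 genes were called, 731 higher and 963 lower. Both calls were lost without shNC library 2 or 3 or library 2 or 3 labelled shPgk1, with adjusted p between 0.0941 and 0.170, while the direction held in each. Both were also lost with a replicate block, though equal numbers did not pair the libraries. The makeup of the class differed between labels: cluster 0 held 2758 of the 6727 tumour-like cells in shNC and 5937 of 10090 in the libraries labelled shPgk1, and cluster 1 held 3969 and 4153. Within cluster 0, in fits added after seeing the data, Cd9 had a log2 fold of 0.35 (edgeR, adjusted p = 0.116) and Gpnmb -1.05 (adjusted p = 0.0496). Within cluster 1 Cd9 had 0.57 (adjusted p = 0.0613) and Gpnmb -1.24 (adjusted p = 0.0659), so Cd9 was called in neither cluster. Gpnmb was also lost with single-marker assignment of barcodes, which sums Epcam and Krt8 for this class (edgeR, adjusted p = 0.0531).

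For 5 further members the tumour-like levels of the libraries labelled shPgk1 all lay below those of shNC without passing the test. The share of all genes without such overlap was not counted. By the edgeR quasi-likelihood test 7 of 9 members and 5790 of 16341 genes had an unadjusted p under 0.05 in this class. Apoe had 1147, 1186 and 1959 CPM in shNC and 1096, 627 and 591 CPM in the libraries labelled shPgk1, a log2 fold of -0.75 ± 0.30 (edgeR, adjusted p = 0.127). Trem2 had 24.3, 24.3 and 35.0 against 22.1, 11.3 and 12.2 CPM, a log2 fold of -0.74 ± 0.28 (adjusted p = 0.114), and Apoc2 had -0.79 ± 0.30. Lpl had -0.84 ± 0.24 (adjusted p = 0.0502) and Cd36 -0.81 ± 0.25 (adjusted p = 0.059), from at most 66 counts a library. The 10 macrophage markers moved with these values: in tumour-like cells their log2 folds lay between -0.70 and -0.24 with a median of -0.49, and 0 of 10 were called. Markers of other classes were lower there too, without overlap between labels: those of neutrophils, where Cd9 was highest, summed to 257 to 360 CPM in shNC and 25.2 to 117 CPM in the libraries labelled shPgk1. Fibroblast markers summed to 410 to 661 and 181 to 266 CPM, and mast cell or basophil markers to 49.0 to 134 and 21.1 to 34.7 CPM. Relative to the macrophage-like level, the marker sum went from 8.58% in shNC to 4.91% in the libraries labelled shPgk1, and Apoe from 8.35% to 4.55%. The part of free RNA in the differences of the members, Gpnmb included, was not tested. Fabp5 (-0.005 ± 0.12) and Lipa (0.08 ± 0.17) lay near 0. DESeq2 called 3239 genes in this class, among them 5 members: Cd9, Gpnmb, Apoc2, Lpl and Trem2. Without library 1 labelled shPgk1, edgeR called 6 members: Cd9, Gpnmb, Apoc2, Apoe, Cd36 and Trem2. The share of all genes called in that fit is not given here.

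The pathway lists in tumour-like cells are read beside the 10.4% of 16341 genes called in this class. Of these lists, the lipid-associated macrophage programme had 1 gene higher (Spp1) and 2 lower (Igf1, Mmp12) of 17 tested. TREM2 signalling had 2 lower of 8 (Inpp5d, Pik3r1), the LXR list 1 higher (Scd2) and 1 lower (Apoc1) of 12, the PPAR list 1 higher of 9 (Cpt1a) and the scavenger receptors 1 lower of 9 (Olr1). The lysosomal list had 1 higher of 17 (Lamp1), lipid droplets 1 lower of 12 (Soat1) and tetraspanins 2 higher (Cd81, Tspan4) and 1 lower (Cd53) of 9. Regulators of lipoprotein lipase had 0 calls of 5 and fatty acid carriers 0 of 7 by edgeR, with 0 and 3 at an unadjusted p under 0.05. Of all genes tested 5790 of 16341 had such a p. Apoc1, the neighbour of Apoe, had a log2 fold of -1.93 ± 0.38 (edgeR quasi-likelihood test, adjusted p = 0.0277), and Cd81, a tetraspanin like Cd9, 0.45 ± 0.11 (adjusted p = 0.0391).

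**Figure D4:**
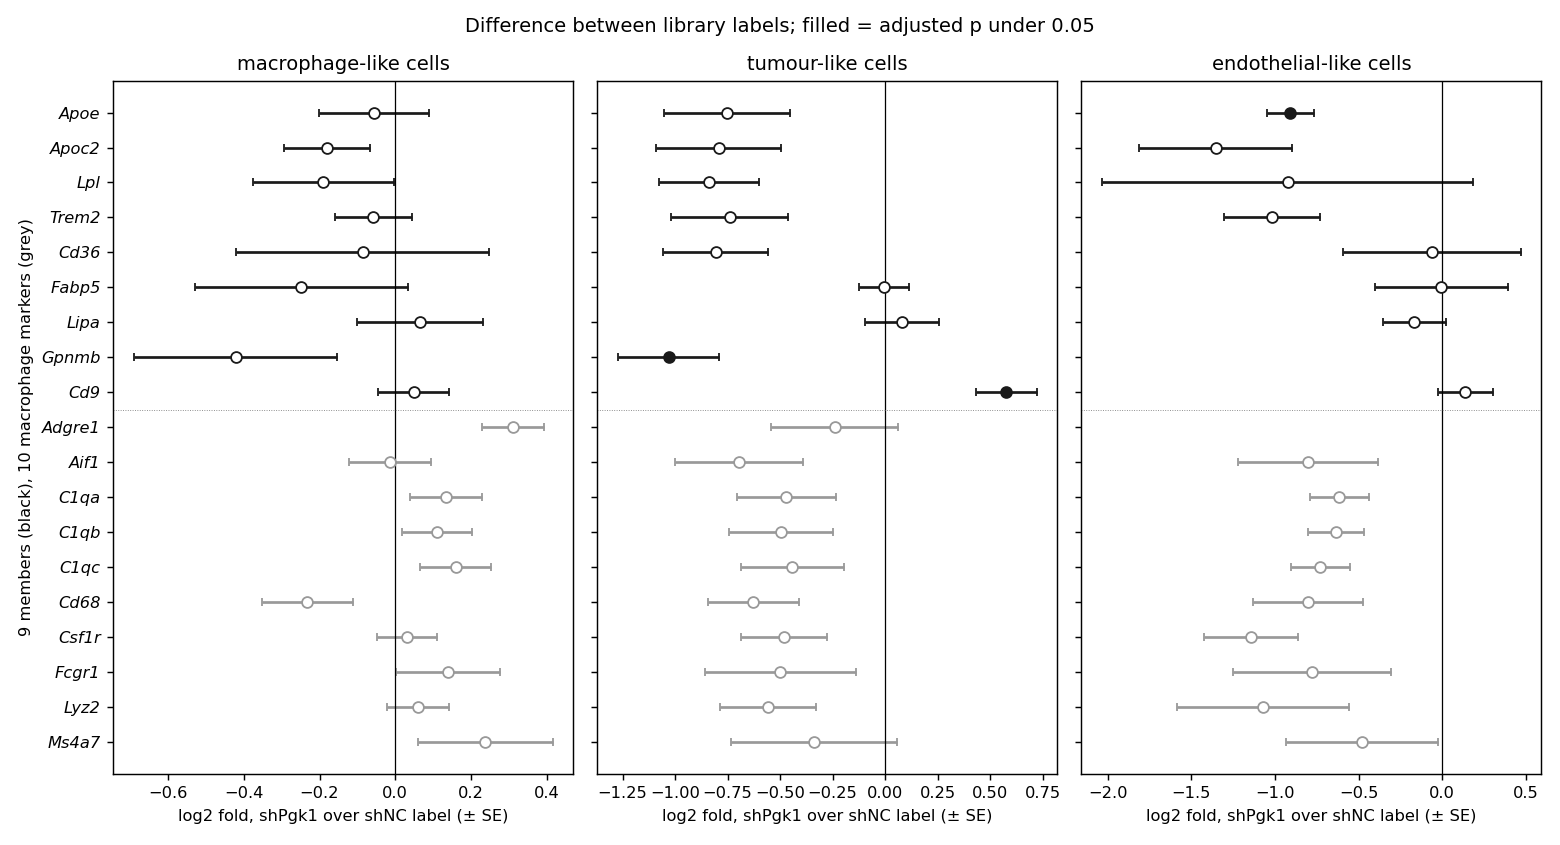
Log2 fold of the libraries labelled shPgk1 over shNC (bars: SE) for the 9 genes (black) and 10 macrophage markers (grey) in macrophage-like, tumour-like and endothelial-like cells, filled where the adjusted p was under 0.05. In macrophage-like cells the members have a median of -0.09 and the markers of 0.12. Most members and all tested markers lie below 0 in the other 2 classes, and Cd9 lies at 0.58 in tumour-like cells.

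The test of the difference between the 2 classes asked whether the label had unequal effects in macrophage-like and tumour-like cells. It called 2 of 9 members, Trem2 (macrophage-like minus tumour-like log2 effect 0.75 ± 0.19, edgeR quasi-likelihood test, adjusted p = 0.0439) and Apoe (0.75 ± 0.20, adjusted p = 0.0497), where 2.67% of 17003 genes were called. Cd9 (-0.50 ± 0.14, adjusted p = 0.0724) and Gpnmb (0.66 ± 0.19, adjusted p = 0.0774) did not pass. The 10 macrophage markers had differences between 0.47 and 0.78 with a median of 0.68, so Apoe and Trem2 lay within the range of the markers, of which 1 was called (Aif1, 0.78, adjusted p = 0.0424). Both were lost without shNC library 1 or 3 or library 2 or 3 labelled shPgk1, with RLE size factors (adjusted p = 0.0546 for Apoe and 0.0538 for Trem2, edgeR) and with single-marker assignment (0.0546 and 0.0663). Apoe was also lost without shNC library 2, with doublets kept (adjusted p = 0.0719) and at clustering resolution 1.0 (0.052).

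In endothelial-like cells Apoe was the 1 of 8 tested members that was called. The shNC libraries had 1704, 1880 and 2027 CPM, against 1117, 835 and 1119 CPM in the libraries labelled shPgk1, without overlap, from 42 to 102 cells a library. The log2 fold was -0.91 ± 0.14 (edgeR quasi-likelihood test, adjusted p = 0.0343), where 0.0557% of 8974 genes were called. The 9 tested macrophage markers lay between -1.15 and -0.48 in the same cells with a median of -0.78, and 0 were called. Apoe in these cells was 8.68% of its macrophage-like level, beside a marker median of 8.93%, and its source was not tested. The call was lost without shNC library 3 (adjusted p = 0.0896), without library 2 (0.224) or 3 (0.199) labelled shPgk1, and where barcodes were assigned by single markers (0.914).

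Cd36 in endothelial-like cells, the class where it was highest, stood at 314, 112 and 157 CPM in shNC and 226, 114 and 243 CPM in the libraries labelled shPgk1. The groups overlapped and the log2 fold was -0.06 ± 0.53 (edgeR, adjusted p = 0.997). Lpl in fibroblast-like cells stood at 88.7, 93.6 and 41.5 CPM in shNC and 49.9, 58.4 and 146 CPM in the libraries labelled shPgk1, a log2 fold of 0.16 ± 0.55 (adjusted p = 0.96). Both intervals leave room for large differences in either direction.

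In T or NK-like cells 0 of 6 tested members were called (0.161% of 11812 genes), in neutrophil-like cells 0 of 6 (0.126% of 5559) and in fibroblast-like cells 0 of 8 (0.0245% of 12255). By the edgeR quasi-likelihood test 3, 2 and 3 of them had an unadjusted p under 0.05. So had 1041 of 11812, 424 of 5559 and 1056 of 12255 of all genes tested. DESeq2 called 0 members in each class, but gave an adjusted p to only 7, 3 and 9 members in these 3 classes. Apoe had log2 folds of -0.58 ± 0.23, -0.63 ± 0.18 and -0.65 ± 0.26 in these 3 classes, Apoc2 -0.68 ± 0.24, -0.999 ± 0.29 and -0.88 ± 0.23 and Trem2 -0.66 ± 0.24, -0.36 ± 0.25 and -0.82 ± 0.24. The macrophage markers had medians of -0.42, -0.35 and -0.55 there. Cd9 in neutrophil-like cells, its highest class, had 0.11 ± 0.17 from 60 to 430 cells a library.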

How the data were processed

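Droplet single-cell RNA was measured in 6 libraries, 3 per label. The deposited matrices hold whole counts of unique molecules per gene and barcode, written by PISA 0.12 per the file headers. The submitters' processing notes name Seurat 4 and GRCh38/hg38, although the gene names are mouse names, and for the aligner and annotation the sources used here give no name. Barcodes with under 500 UMIs, under 300 genes or over 20% mitochondrial counts were removed (643), as were 825 with a Scrublet doublet score over 0.25, since the default limit marked between 1 and 141 barcodes a library. Cells were clustered with scanpy 1.11.5 and leidenalg 0.10.2 (Python 3.11.15; 2000 variable genes without the 9 members, 30 components, 15 neighbours, resolution 0.5, no batch integration) and named from fixed marker lists, needing at least 3 markers. Pairs of libraries held 1234 to 1671 identical cell names, which are running names rather than barcode sequences.

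Counts were summed per library and class and compared with edgeR 4.0.16 in R 4.3.3 (TMM, filterByExpr, robust quasi-likelihood F test, group only, Benjamini-Hochberg over all genes tested, threshold 0.05). The difference between macrophage-like and tumour-like cells was tested over 12 sums with library and class as terms. The SE of a log2 fold was derived from the fold and its F statistic. CPM scales a gene's counts by all counts of the class in that library. Correlations and shares used cells thinned to 3000 UMIs. Alternatives were RLE factors, DESeq2 1.42.0, no low-count filter, a replicate block, each library left out, doublets kept, single-marker assignment of barcodes, resolution 1.0 and single clusters. Single-marker assignment used 8 markers. They were Epcam with Krt8 for tumour-like cells, Csf1r with Cd68 for macrophage-like cells, and Cd3e, S100a8, Col1a2 or Cdh5 alone for the others. The code was tested on simulated counts.

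The members, pathway lists and tests were chosen with earlier results of these data known. Named besides the 9 members were Pgk1, up to 3 genes per list with the smallest p in macrophage-like cells (1 of them is not reported here), and the 12 genes most correlated with the members. List genes named by their call in tumour-like cells and the genes lowest in correlation were chosen after their values were seen.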

Additional observations from a re-analysis of the deposited data

Results flagged for a closer look

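The test of the difference between macrophage-like and tumour-like cells in the effect of the label called 2 of 9 members. In the same test 2.67% of 17003 genes were called. For Apoe the macrophage-like effect exceeded the tumour-like one by 0.75 on the log2 scale (edgeR quasi-likelihood test, adjusted p = 0.0497), with -0.06 in macrophage-like and -0.75 in tumour-like cells. For Trem2 the difference was 0.75 (adjusted p = 0.0439), with -0.06 and -0.74. The 10 macrophage markers had a median difference of 0.68 in the same edgeR fit, and 1 of them was called (Aif1, adjusted p = 0.0424). Apoe and Trem2 in tumour-like cells stood at 6.45% and 7.29% of their macrophage-like level, beside a marker median of 6.92%. The part of free RNA in both differences was not tested. Both calls were lost with RLE size factors and with single-marker assignment, that of Apoe also with doublets kept and at resolution 1.0, and with a library left out the number of members called was 0 to 3.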

How the results depend on the processing

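The counts of members below mostly stand without the share of all genes called under the same alternative. DESeq2 called 3239 genes in tumour-like cells and 490 for the difference between macrophage-like and tumour-like cells. The number of members called depended on the processing in each class. In macrophage-like cells it was 0 under each alternative except when a library was left out (0 to 1). In tumour-like cells it was 2, and it became 5 with DESeq2, 0 with the replicate block, 1 with barcodes assigned by single markers (Cd9), 1 within cluster 0 (Gpnmb) and 0 within cluster 1, the fits within clusters 0 and 1 being chosen after seeing the data, and 0 to 6 with a library left out. In T or NK-like cells 0 became 2 without the low-count filter (Apoe, Trem2), 1 with doublets kept (Apoc2) and 0 to 1 with a library left out. In neutrophil-like cells 0 became 1 without the filter and 1 with the replicate block (Apoe in both), and 0 to 0 with a library left out. In fibroblast-like cells 0 became 2 without the filter (Apoc2, Trem2), and 0 to 0 with a library left out. In endothelial-like cells 1 became 2 without the filter (Apoc2, Apoe), 0 with single markers and 0 to 1 with a library left out. For the difference between macrophage-like and tumour-like cells 2 became 0 with RLE factors, 4 with DESeq2, 5 without the filter, 1 with doublets kept (Trem2), 1 with single markers (Cd9), 1 at resolution 1.0 (Trem2) and 0 to 3 with a library left out. The causes were not tested. Under the replicate block, Gpnmb in tumour-like cells had an edgeR adjusted p of 0.0516 and Cd9 of 0.0794. Equal numbers did not pair the libraries: the correlations of their deviations were 0.028, -0.028 and -0.16 in macrophage-like and -0.013, 0.17 and -0.16 in tumour-like cells. The median co-expression of 0.04 became 0.075 without thinning and -0.013 in cluster 11.

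Log2 folds near 0 changed sign. With each library left out in turn, they ranged in macrophage-like cells from -0.18 to 0.0902 for Apoe, -0.28 to 0.26 for Cd36, -0.14 to 0.013 for Trem2, -0.16 to 0.17 for Lipa, -0.019 to 0.13 for Cd9 and -0.047 to 0.042 for Pgk1. In tumour-like cells the ranges were -0.093 to 0.088 for Fabp5 and -0.16 to 0.23 for Lipa, and in T or NK-like cells -0.15 to 0.031 for Lipa and -0.013 to 0.26 for Cd9. In fibroblast-like cells they were -0.47 to 0.42 for Lpl, -0.54 to 0.089 for Fabp5, -0.12 to 0.21 for Lipa and -0.25 to 0.26 for Gpnmb. In endothelial-like cells they were -0.36 to 0.48 for Cd36, -0.40 to 0.26 for Fabp5 and -0.029 to 0.24 for Cd9, and for the difference between classes -0.062 to 0.10 for Lipa. Within cluster 3 the macrophage-like folds were 0.0495 for Apoe, 0.20 for Cd36, 0.16 for Gpnmb, -0.0299 for Cd9 and -0.17 for Pgk1. Within cluster 11 they were 0.085 for Apoe, 0.23 for Apoc2, 0.10 for Trem2 and -0.33 for Lipa, and within cluster 2 -0.054 for Lipa. With single markers they were -0.081 for Lipa, -0.033 for Cd9 and -0.083 for Pgk1 in macrophage-like cells, 0.49 for Apoe, 0.53 for Apoc2, 0.39 for Trem2, 0.21 for Fabp5 and 0.39 for Lipa in neutrophil-like cells, 0.044 for Fabp5 in fibroblast-like cells and -0.13 for Lipa between classes. Pgk1 in macrophage-like cells had -0.0005 without the filter, -0.011 with doublets kept and -0.0066 at resolution 1.0. Fabp5 in tumour-like cells had 0.0091 with RLE factors, 0.033 with DESeq2 and 0.043 without the filter, and Lipa -0.19 within cluster 0. Lipa between classes had -0.086 without the filter and -0.0019 with doublets kept. Cd36 in endothelial-like cells had 0.016 with the replicate block. Of the values for single genes, 649 kept direction and side of the threshold, 33 were no longer past it, 32 were newly past it and 65 changed sign.

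Lpl, Cd36 and Gpnmb rest on few counts outside their highest classes, which limits their folds. Neutrophil-like and endothelial-like cells were as few as 60 and 42 in a library. Pericyte-like cells, in which the labels were not compared, were as few as 11. With 3 libraries a group, an exact permutation test over libraries could not go below 0.1.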
